A study of Mus musculus and Homo sapiens with 12 samples.

Results

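Aminoacyl-tRNA synthetases are the enzymes that join each amino acid to its tRNA before it can enter a protein. The genes described here were chosen by symbol alone: every listed synthetase except the valyl enzymes VARS and VARS2, with the selenocysteine enzyme SEPSECS and the scaffold proteins AIMP1, AIMP2 and EEF1E1. Of 11513 human genes 37 were such, and of 10430 mouse genes 36. They were 19 cytosolic enzymes in each species, 14 mitochondrial enzymes in human and 13 in mouse, and 4 others in each. Mouse Sars2 and Cars2 have no symbol in the deposited data, were recognised by identifier and stood outside this choice.

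The cell has separate synthetases for the cytosol and for mitochondria, all encoded in the nucleus, and the symbols of the mitochondrial enzymes end in 2. GARS and KARS serve both compartments. Some cytosolic enzymes are held in a multi-synthetase complex by the AIMP scaffold proteins, and the others are free. When an amino acid runs short, uncharged tRNA activates the kinase GCN2 and the transcription factor ATF4 accumulates. Together with its partner CHOP, ATF4 is known to raise the transcription of many, but not all, cytosolic synthetase genes and of Asns, which makes asparagine.

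RNA was sequenced from human and mouse T-cell acute lymphoblastic leukaemia, T-ALL, with 2 libraries per group. KOPTK1, an established human T-ALL line, received the carrier DMSO or the gamma-secretase inhibitor Compound E (gSI) for 72 h. Gamma-secretase releases the active part of NOTCH1, so the inhibitor blocks NOTCH signalling. The mouse libraries came from C57BL/6 mice that carried secondary transplants of tumours driven by NOTCH-delta E, an activated NOTCH1 present in every diet group, control included. These mice spent 3 weeks on diets labelled 8 g/kg valine (the control), 0.8 g/kg, 0.4 g/kg or 0 g/kg, after which leukaemic cells carrying GFP were isolated by sorting of spleen. The protocol describes the 2 intermediate groups as a valine-deficient diet with 0.8 or 0.4 g/L valine in the drinking water, so the diets are used here by name and rank. Each diet has a library named TALL2 and one named TALL3. What the names stand for, and the age and number of the mice, is not in the labels.

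Values are FPKM, reads scaled by the length of the gene and the depth of the library. Read numbers recovered from the FPKM ran from 22833280 to 42068398 per human library and from 14222895 to 37687253 per mouse library, and no member had fewer than 171 recovered reads in any library of either species. All 13 T-ALL and thymocyte markers were listed in mouse, with summed levels of 2837 to 3867 FPKM, and all 8 T-lineage markers in KOPTK1, at 375 and 387 FPKM with DMSO and 224 and 238 FPKM with gSI. Other cell types were not absent from the mouse sort. The 11 listed neutrophil markers summed to 0.753 and 8.28 FPKM on the control diet, 6.69 to 72.7 FPKM at 0.8 and 0.4 g/kg, and 547 and 307 FPKM at 0 g/kg. The 7 listed erythroid markers went the other way, from 94.9 and 250 FPKM on the control diet to 0.902 and 3.33 FPKM at 0 g/kg, where 5 of them, the globins Hba-a1, Hba-a2, Hbb-bs and Hbb-bt and the haem enzyme Alas2, were at 0 in TALL2. The 4 listed macrophage markers lay between 5.27 and 11.97 FPKM on the other diets and at 34.8 and 33.4 FPKM at 0 g/kg, and none of 6 B-cell markers was listed.

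The promoters of the mouse genes were read first for the amino acid response element, TGATGNAA, a motif bound by ATF4 dimers. RefSeq promoters (GRCm38.p6, 250 bases before to 50 bases after the start) were at hand for 13 cytosolic enzymes, 10 mitochondrial enzymes and 3 others. On either strand, the motif occurred in 5 of the 13 cytosolic promoters, those of Aars, Gars, Iars, Tars and Yars, and in none of the other 13. The share of all 32851 promoters that held it was 3.97%. Counted by gene, it was 4.51% of all 27025 genes with a promoter. Among the 7803 of them that averaged 1 FPKM or more, it was 2.61%. The windows that hold the motif are shown for Gars, Iars, Tars and Yars, and for Aars only the distances from the start are given below. Capitals mark the match, and each window is read on the strand that spells it.
Gars, chr6:55037960-55037989, minus strand: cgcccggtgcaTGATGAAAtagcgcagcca
Iars, chr13:49682126-49682155, minus strand: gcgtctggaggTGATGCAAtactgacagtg
Tars, chr15:11399655-11399684, plus strand: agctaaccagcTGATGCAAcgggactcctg
Yars, chr4:129189895-129189924, plus strand: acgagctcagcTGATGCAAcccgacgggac

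All matches in these 5 promoters lay close to the annotated start: 112 bases upstream and 9 bases downstream in Aars, 30 bases upstream in Gars, 7 bases downstream in Iars, 15 bases upstream in Tars and 3 bases downstream in Yars. The 5 genes are all among the 8 enzymes with a promoter here that the literature lists as ATF4 and CHOP targets, and no promoter of the 5 off that list held the motif. The E-box CACGTG, bound by MYC among others, occurred in 4 cytosolic promoters (Aars, Farsb, Iars and Tars), in the mitochondrial Ears2, and in 7.15% of all promoters. It overlapped no TGATGNAA match in these genes. Counted by gene instead, the E-box share was 8.09% of all 27025 genes with a promoter. It was 12.4% of the 7803 among them that averaged 1 FPKM or more, as the genes tested here did. A match describes the letters of the promoter and no binding was measured.

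The diet comparison asked which mRNAs followed the valine supply in leukaemic cells. On the valine-free diet most cytosolic synthetase mRNAs with ATF4-target status in the literature stood above the control diet in both libraries, by up to 2.36-fold, and the mitochondrial enzymes as a class stayed near it. No gene passed the threshold, so these are levels and not calls: limma found 0 of 9943 tested genes (0%) at an adjusted p under 0.05 for 0 against 8 g/kg, as did voom on recovered reads. At an unadjusted p under 0.05 limma had 476 genes higher (4.79%) and 549 lower (5.52%), and voom 453 and 480. Among the 19 cytosolic enzymes, 10 were higher and 0 lower at that unadjusted level. In bulk RNA, fewer cells of a type and less RNA per cell cannot be told apart, and separate mice or cultures behind the libraries of a group are not stated, so every p measures only the spread between libraries.

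Sars, which charges tRNA with serine, had the smallest p of all members. Its levels were 48.4 and 47.6 FPKM (TALL2 and TALL3) on 8 g/kg, 57.6 and 75.6 FPKM on 0.8 g/kg, 74.7 and 69.8 FPKM on 0.4 g/kg, and 81.6 and 85.4 FPKM on 0 g/kg. Every restricted library lay above both controls. The log2 difference of 0 from 8 g/kg was 0.79 (SE 0.13, limma adjusted p = 0.202). Sars, at chr3:108424865-108445209 in GRCm38, had no TGATGNAA in its promoter window.

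Aars, the alanyl enzyme, stood at 29.8 and 30.7 FPKM on 8 g/kg, 33.5 and 51.5 FPKM on 0.8 g/kg, 51.7 and 42.7 FPKM on 0.4 g/kg, and 50.9 and 63.4 FPKM on 0 g/kg. Again all 6 restricted libraries exceeded both controls, and 0.8 g/kg TALL2 was the nearest to them. At 0 g/kg the log2 difference was 0.89 (SE 0.22, limma adjusted p = 0.371). Yars, for tyrosine, read 25.3 and 31.1 FPKM on 8 g/kg, 29.9 and 48.4 FPKM on 0.8 g/kg, 49.7 and 42.7 FPKM on 0.4 g/kg, and 49.1 and 57.6 FPKM on 0 g/kg. Only 0.8 g/kg TALL2 lay between its controls, and the log2 difference at 0 g/kg was 0.90 (SE 0.24, limma adjusted p = 0.371). Cars, for cysteine, had the lowest median level of the cytosolic class per length and the largest difference: 11.7 and 16.4 FPKM on 8 g/kg, 14.7 and 33.1 FPKM on 0.8 g/kg, 33.2 and 27.5 FPKM on 0.4 g/kg, and 30.4 and 36.1 FPKM on 0 g/kg. Its mean on 0 g/kg was 2.36-fold that on 8 g/kg, with a log2 difference of 1.196 (SE 0.37, limma adjusted p = 0.406). As in Yars, 0.8 g/kg TALL2 lay between the controls and the other 5 restricted libraries lay above them.

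Isoleucine and leucine are branched-chain amino acids like valine, and their cytosolic enzymes are described for that reason. Iars levels were 34.5 and 37.7 FPKM on 8 g/kg, 38.5 and 60.9 FPKM on 0.8 g/kg, 68.8 and 54.8 FPKM on 0.4 g/kg, and 55.5 and 56.9 FPKM on 0 g/kg. Lars levels were 37.5 and 39.1 FPKM, 39.9 and 55.98 FPKM, 56.9 and 45.5 FPKM, and 57.2 and 55.6 FPKM on the same diets in that order. For both enzymes all 6 restricted libraries were above both controls, 0.8 g/kg TALL2 by the smallest margin. The log2 differences at 0 g/kg were 0.63 for Iars (SE 0.22, limma adjusted p = 0.440) and 0.55 for Lars (SE 0.18, limma adjusted p = 0.415). Vars itself, for valine, ranged from 145 to 160 FPKM over the control and 0.8 g/kg diets and stood at 161 and 158 FPKM on 0 g/kg, a log2 difference of 0.11 (SE 0.08, limma adjusted p = 0.661). Vars2, its mitochondrial counterpart, differed by 0.07 (SE 0.12, limma adjusted p = 0.872).

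**Figure D1:**
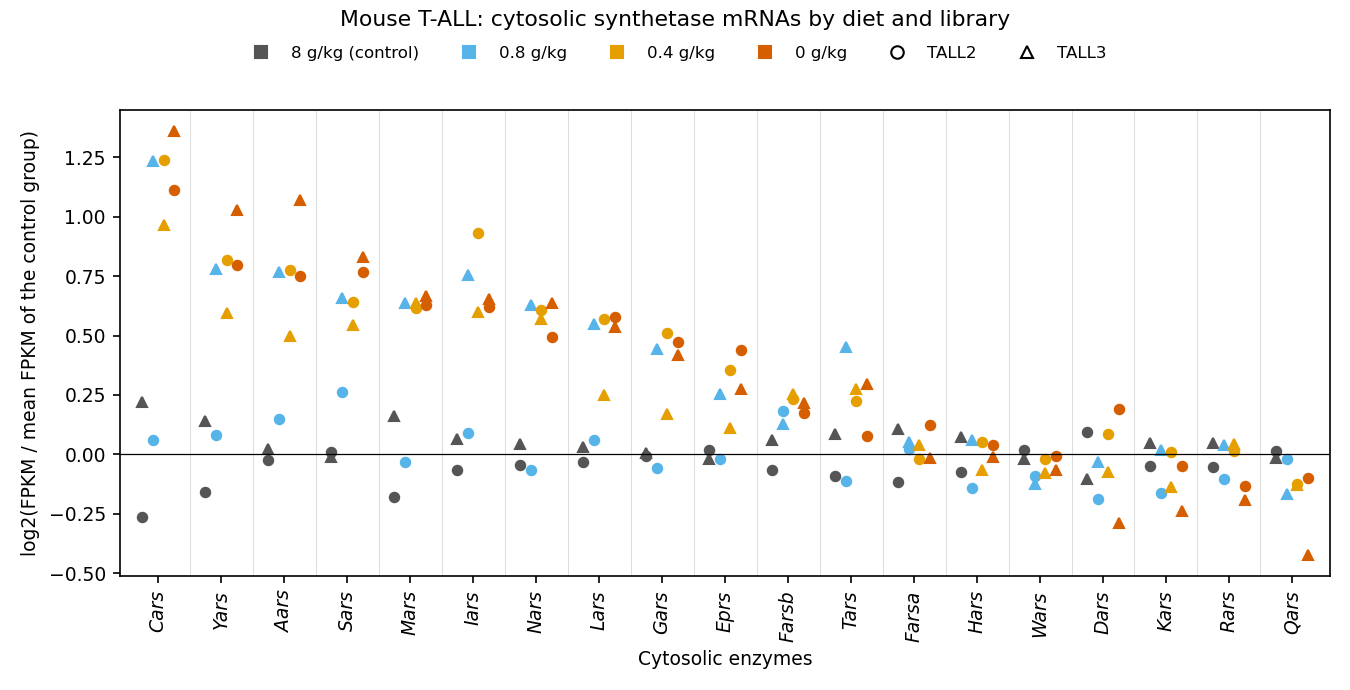
Level of each mouse cytosolic synthetase in every library, as log2 of FPKM over the mean of the 2 control libraries; colours are diets, circles TALL2, triangles TALL3, and enzymes are ordered by their mean at 0 g/kg. From Cars to Eprs the 0 g/kg libraries sit above both control libraries, while the blue circle of 0.8 g/kg TALL2 is the lowest restricted library for each of them; Qars, at the far right, has all 6 restricted libraries below both controls.

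At 0 g/kg both libraries were above both controls for 11 of 19 cytosolic enzymes, against 19.1% of all genes: Cars, Yars, Aars, Sars, Mars, Iars, Nars, Lars, Gars, Eprs and Farsb. Both were below for 3 (Kars, Rars and Qars), against 22.9% of all genes, and for Kars the margin in TALL2 was 191.3 against 191.4 FPKM. Of the 12 enzymes listed as ATF4 and CHOP targets, 10 were above in both libraries and 0 below, and the median log2 difference was 0.59. Of the 7 off the list, 1 was above (Farsb, a phenylalanyl subunit) and 3 below, with a median of -0.04. That median was 0.35 over all 19 and -0.01 over all genes tested. Wars and Tars are the listed enzymes that did not separate. Wars, for tryptophan, stayed between 47.0 and 51.9 FPKM in all 8 libraries, and Tars, for threonine, had 37.0 and 42.9 FPKM at 0 g/kg against 32.9 and 37.1 FPKM on the control diet.

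Where the promoter was read, the motif and the level did not map onto each other one to one. Aars, Gars, Iars and Yars carried TGATGNAA and were above both controls in both 0 g/kg libraries, and Tars carried it and was not. Eprs, Farsb, Mars and Sars were above both controls with no match in the window. No promoter was read for Cars, Lars or Nars.

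The enzymes can also be grouped by complex and by catalytic fold. Among enzymes of the multi-synthetase complex, 4 of 8 were above in both 0 g/kg libraries and 3 below, and among free enzymes 7 of 11 were above and 0 below, where 19.1% of all genes were above and 22.9% below. By catalytic fold, 6 of 9 class I enzymes were above and 2 below, and 5 of 10 class II enzymes were above and 1 below. Within the complex the 4 higher enzymes were Eprs, Iars, Lars and Mars, all on the ATF4 list, and the 3 lower ones were Kars, Qars and Rars, all off it.

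Summed over the 12 listed enzymes, mRNA levels separated 5 restricted libraries from the controls. The controls held 583 and 616 FPKM, 0.8 g/kg held 603 FPKM in TALL2 and 862 FPKM in TALL3, 0.4 g/kg held 880 and 775 FPKM, and 0 g/kg held 861 and 890 FPKM. The library 0.8 g/kg TALL2 lay between the controls. The 7 other cytosolic enzymes together gave 653 and 667 FPKM on the control diet and 582 to 676 FPKM on restricted diets, with both controls inside that range. Asns, the ATF4 target outside the class, had 2.02 and 2.90 FPKM on 8 g/kg, 5.58 and 47.5 FPKM on 0.8 g/kg, 47.3 and 17.1 FPKM on 0.4 g/kg, and 69.2 and 84.6 FPKM on 0 g/kg. Its order within 0.8 g/kg, TALL2 far below TALL3, was that of the 12 enzymes. The neutrophil marker sums (TALL2 and TALL3) were 13.7 and 6.69 FPKM at 0.8 g/kg, 12.2 and 72.7 FPKM at 0.4 g/kg, and 547 and 307 FPKM at 0 g/kg. The part of neutrophils and macrophages in the enzyme values of any diet was not tested.

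**Figure D2:**
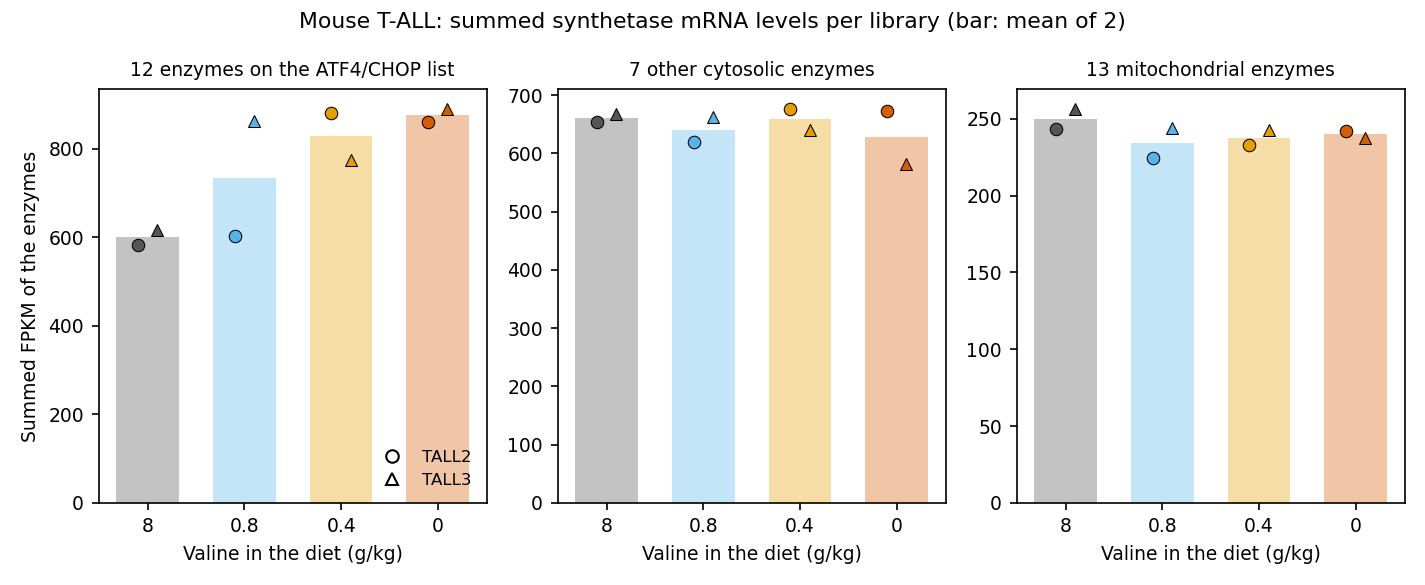
Summed FPKM per library (points) and group mean (bars) for the 12 cytosolic enzymes on the ATF4 and CHOP list, the 7 other cytosolic enzymes and the 13 mitochondrial enzymes, by valine in the diet. In the left panel 5 of 6 restricted libraries lie between 775 and 890 FPKM and both controls at or below 616 FPKM; in the other panels the diets overlap or lie close together.

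At 0.4 g/kg the same class stood above the control diet, with Iars the largest difference after Cars. Limma again called 0 of 9943 genes (0%), with 306 genes higher (3.08%) and 753 lower (7.57%) at an unadjusted p under 0.05 (voom 0 calls, 297 and 833). Both libraries were above both controls for 12 of 19 cytosolic enzymes, against 16.9% of all genes, and below for 2, Qars and Wars, against 31.8%. Of the 12 listed enzymes 11 were above, all but Wars, and the off-list enzyme above was Farsb. The median log2 difference was 0.24 over the class, 0.58 over the 12 and -0.05 over all genes. Iars differed by 0.75 (SE 0.22, limma adjusted p = 0.411), Sars by 0.58 (SE 0.13, adjusted p = 0.389) and Cars by 1.07 (SE 0.37, adjusted p = 0.421). Farsb had 62.2 and 67.8 FPKM on 8 g/kg and 76.4 and 77.5 FPKM on 0.4 g/kg, a log2 difference of 0.24 (SE 0.08, limma adjusted p = 0.418). Over all restricted diets Farsb lay between 71.0 and 77.5 FPKM, above both controls in 6 of 6 libraries.

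At 0.8 g/kg the 2 libraries went separate ways. Limma called 0 of 9943 genes (0%), with 114 higher (1.15%) and 319 lower (3.21%) at an unadjusted p under 0.05 (voom 0 calls, 123 and 316). Both libraries were above both controls for 5 of 19 cytosolic enzymes, against 10.6% of all genes (Sars, Aars, Iars, Lars and Farsb), and below for 2, Qars and Wars, against 22.5%. The class median log2 difference was 0.17, but 0.44 from TALL3 alone and -0.02 from TALL2 alone, so its sign depended on which library was used. Sars differed by 0.45 (SE 0.13, limma adjusted p = 0.998) and Aars by 0.45 (SE 0.22, adjusted p = 0.998).

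Counted over all restricted diets, which share the same 2 control libraries, at least 5 of the 6 libraries were above both controls for 11 cytosolic enzymes, against 11.8% of all genes. For 5 of them, Farsb, Sars, Aars, Iars and Lars, it was 6 of 6, against 4.73% of all genes. In the opposite direction Qars was below both controls in 6 of 6 libraries (11.4% of all genes were) and Wars in 5 (at least 5 in 22.8% of genes). Qars charges tRNA with glutamine and had 94.0 and 91.9 FPKM on 8 g/kg and 69.4 to 91.6 FPKM in restricted libraries.

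A slope over the diets ranked by falling valine used all 8 libraries. Limma called 0 of 9943 genes (0%), with 587 higher (5.9%) and 633 lower (6.37%) at an unadjusted p under 0.05 (voom 0 calls, 553 and 633). The largest evidence among members was again for Sars, at 0.25 log2 units per diet step (SE 0.04, adjusted p = 0.182). Aars had a slope of 0.28 (SE 0.06, adjusted p = 0.222), Yars of 0.30 (SE 0.07, adjusted p = 0.226) and Cars of 0.40 (SE 0.11, adjusted p = 0.251). Of the 12 listed enzymes, 10 had an unadjusted p under 0.05 for a higher level with falling valine, and 1 of the 7 others did, Farsb. Qars had one for a lower level. The median slope of the class was 0.12, against -0.01 over all genes. Without 0.8 g/kg TALL3, the slope of Sars was 0.27 (SE 0.02).

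Mitochondrial synthetases had a median log2 difference of 0.01 at 0 g/kg. On that diet 1 of 13, Rars2, was above both controls in both libraries, where 19.1% of all genes were, and 1, Iars2, was below, where 22.9% were. Iars2, the mitochondrial isoleucyl enzyme at chr1:185284726-185329396 in GRCm38, was the clearest of them. It had 49.8 and 43.7 FPKM on 8 g/kg, 36.5 and 35.9 FPKM on 0.8 g/kg, 36.0 and 32.6 FPKM on 0.4 g/kg, and 37.1 and 32.2 FPKM on 0 g/kg. All 6 restricted libraries were below both controls, with little order among the 3 restricted diets. The log2 differences were -0.36, -0.44 and -0.42 at 0.8, 0.4 and 0 g/kg (SE 0.11 for each, limma adjusted p = 0.998, 0.397 and 0.371). Its cytosolic counterpart Iars differed in the opposite direction on each diet. At 0.4 g/kg 2 mitochondrial enzymes were above both controls in both libraries (16.9% of all genes) and 3 below (31.8%). At 0.8 g/kg 2 were above (10.6%) and 4 below (22.5%). Nars2, for mitochondrial asparagine, was below both controls in 5 of 6 restricted libraries (at least 5 in 22.8% of genes).

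Rars2, for mitochondrial arginine, was above both controls in 6 of 6 libraries, with 18.8 and 20.4 FPKM on 8 g/kg and 20.7 to 25.3 FPKM on restricted diets. The log2 difference at 0.4 g/kg was 0.31 (SE 0.12, limma adjusted p = 0.455). Lars2, by far the most abundant mitochondrial enzyme per length, stayed between 82.4 and 96.6 FPKM in all libraries, and at 0 g/kg differed by -0.04 (SE 0.10, limma adjusted p = 0.906). The other mitochondrial members had median levels over the 8 libraries from 2.53 FPKM (Wars2) to 22.4 FPKM (Tars2). Sars2 and Cars2, the rows without a symbol, differed by -0.10 (SE 0.09, limma adjusted p = 0.715) and 0.20 (SE 0.14, limma adjusted p = 0.651) at 0 g/kg.

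Among the other members, 3 of 4 were below both controls in both 0 g/kg libraries, Aimp1, Aimp2 and Sepsecs, against 22.9% of all genes. Aimp1, a scaffold of the complex, had 79.2 and 83.0 FPKM on 8 g/kg, 73.2 and 76.7 FPKM on 0.8 g/kg, 71.7 and 70.7 FPKM on 0.4 g/kg, and 72.7 and 64.3 FPKM on 0 g/kg. It lay below both controls in 6 of 6 restricted libraries, with a log2 difference at 0 g/kg of -0.24 (SE 0.09, limma adjusted p = 0.443). The complex enzymes Eprs, Iars, Lars and Mars were above the controls on that diet while this scaffold was below. Kars, Qars and Rars, also of the complex, were below both controls there as Aimp1 was, and Dars overlapped them. Eef1e1, another scaffold, overlapped its controls at 0 g/kg.

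**Figure D3:**
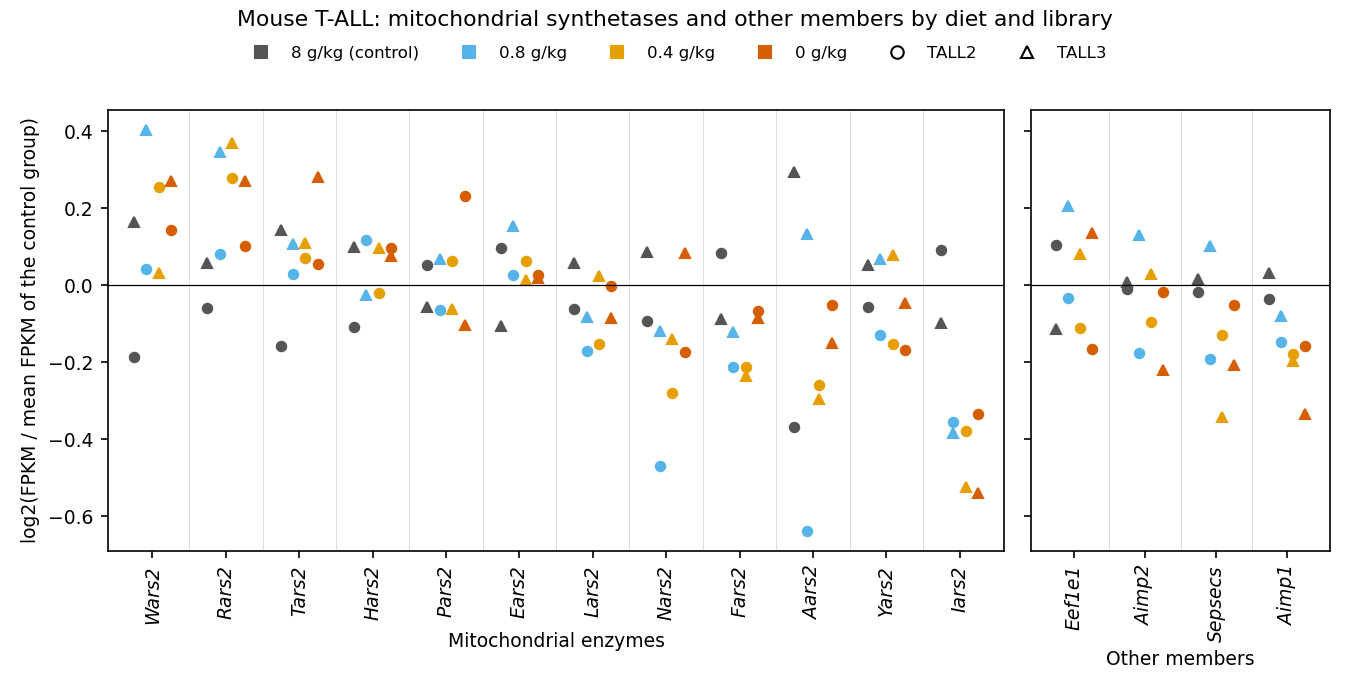
The same plot for the mouse mitochondrial enzymes described here and the 4 other members, as log2 of FPKM over the control mean, with colours for diets and shapes for TALL2 and TALL3. Iars2 and Aimp1 have all 6 restricted libraries below both controls and Rars2 has all 6 above; Aars2 spreads as widely between its 2 controls as between diets.

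Per length, the order of levels in mouse can be read across genes. Among cytosolic enzymes Kars had the highest median over the 8 libraries, 191 FPKM, followed by Gars at 142 FPKM and Dars at 134 FPKM; Farsa and Cars were lowest, each near 29 FPKM. The ranges of Gars (111 to 165 FPKM) and Dars (113 to 158 FPKM) overlapped, and that of Kars (168 to 205 FPKM) lay above both. Most mitochondrial enzymes lay lower than every cytosolic enzyme, with Lars2 (88.3 FPKM), between Eprs (93.1 FPKM) and Qars (86.0 FPKM), as the exception in rank, followed by Iars2 at 36.3 FPKM.

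Of 18 listed genes that work with the synthetases, such as elongation factors, the tRNA exporter Xpot and the deacylases Dtd1 and Dtd2, 0 passed in any diet comparison. At 0 g/kg, 4 were above both controls in both libraries (Vars, Xpot, Eef1d and Eef1g), a share near the 19.1% of all genes, and 1 below (Dtd2), against 22.9%. The median log2 difference was -0.02.

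In KOPTK1 the question was which mRNAs respond to loss of gamma-secretase activity. Cytosolic synthetases mostly fell: 13 of the 18 tested passed the threshold downwards, where 30.3% of all 6679 tested genes did. Upwards 1 passed, WARS, where 22.8% did. Upward calls were 2 enzymes with median-of-ratios scaling, where 1786 genes rose, and 3 with quantile scaling, where 1981 genes rose. The median log2 fold change was -0.39, against -0.03 over all genes. Of 6 tested mitochondrial enzymes 0 fell and 2 rose, TARS2 and PARS2, with a median of 0.08. Of all genes tested 53.1% changed in one direction or the other. Both gSI libraries were below both DMSO libraries for 14 of the 18 (42.4% of all genes) and above for 2 (33.9%). A further 10 members, FARSB, EEF1E1 and 8 mitochondrial enzymes, had a mean under 1 FPKM and were not tested. That filter did not follow read numbers: untested LARS2 had 1328 to 2299 recovered reads and tested PARS2 185 to 462. Of the 8, WARS2, FARS2, LARS2 and EARS2 had both gSI libraries below both DMSO libraries, and CARS2 had both above. Among all 14 mitochondrial enzymes, 7 were above the DMSO mean in each gSI library.

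The human FPKM follow a length near that of the whole gene with its introns, so levels are not compared between human genes. YARS, for tyrosine, had 11.8 and 12.1 FPKM with DMSO and 7.07 and 7.42 FPKM with gSI. It fell by 0.66 on the log2 scale (SE 0.08, limma adjusted p = 8.23e-08), a 1.65-fold lower mean FPKM. DARS, for aspartate, had 2.74 and 2.59 FPKM with DMSO and 1.55 and 1.41 FPKM with gSI, a 1.8-fold lower mean. Its log2(FPKM + 1) fell by 0.56 (SE 0.07, limma adjusted p = 1.07e-07).

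GARS, for glycine, went from 11.8 and 11.2 FPKM to 7.43 and 7.56 FPKM, and fell by 0.56 (SE 0.08, limma adjusted p = 9.93e-07). KARS, for lysine, went from 11.4 and 10.8 FPKM to 7.58 and 7.57 FPKM, and fell by 0.50 (SE 0.08, limma adjusted p = 5.34e-06). TARS, for threonine, went from 15.1 and 14.1 FPKM to 10.1 and 9.94 FPKM, and fell by 0.50 (SE 0.08, limma adjusted p = 7.09e-06). In all 3 the gSI libraries lay below both DMSO libraries and close to each other.

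The branched-chain enzymes fell in the cytosol. LARS went from 4.16 and 3.82 FPKM with DMSO to 2.48 and 2.49 FPKM with gSI (log2 -0.52, SE 0.07, limma adjusted p = 1.49e-06). IARS went from 4.93 and 4.58 FPKM to 3.37 and 3.37 FPKM (log2 -0.40, SE 0.07, limma adjusted p = 6.79e-05). Mitochondrial IARS2 had 3.16 and 2.90 FPKM with DMSO and 2.82 and 2.73 FPKM with gSI and did not pass (log2 -0.10, SE 0.07, limma adjusted p = 0.279). Untested LARS2 had 0.383 and 0.346 FPKM with DMSO and 0.302 and 0.319 FPKM with gSI. Of the valyl enzymes, VARS fell from 2.07 and 2.05 FPKM to 1.13 and 1.205 FPKM (log2 -0.50, SE 0.06, limma adjusted p = 1.93e-07). VARS2, unlike IARS2 and LARS2, rose, from 1.77 and 1.91 FPKM to 2.20 and 2.18 FPKM (log2 0.17, SE 0.07, limma adjusted p = 0.0392). The rise of VARS2 did not pass without DMSO replicate 1 or either gSI replicate (adjusted p = 0.102 to 0.242) or with no filter (0.0629).

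WARS, for tryptophan, was the cytosolic enzyme that rose, from 0.967 and 1.03 FPKM to 1.21 and 1.26 FPKM (log2 0.16, SE 0.06, limma adjusted p = 0.0163). Without gSI replicate 1 or 2 its adjusted p was 0.113 and 0.209. RARS, for arginine, had 1.13 and 1.03 FPKM with DMSO and 1.24 and 1.26 FPKM with gSI and did not pass (adjusted p = 0.0920), though it did with median-of-ratios scaling (0.0210), quantile scaling (0.0262) and voom (0.0471). AARS had 22.9 and 22.1 FPKM with DMSO and 22.2 and 22.8 FPKM with gSI (log2 0.00, SE 0.08, adjusted p = 0.994), and under quantile scaling alone it passed upwards (log2 0.17, adjusted p = 0.0328). SARS (log2 -0.17, adjusted p = 0.0756) and HARS (log2 -0.06, adjusted p = 0.491) did not pass.

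The other 6 enzymes that fell, CARS, MARS, NARS, EPRS, QARS and FARSA, changed by -0.47 to -0.22 on the scale of log2(FPKM + 1). This scale shrinks changes at low FPKM: the mean FPKM of CARS was 1.64-fold lower with gSI, and that of YARS 1.65-fold. Of the 13 falls 10 kept their call under every setting that tested them. The exceptions were EPRS, which lost it without DMSO replicate 1 or either gSI replicate (adjusted p = 0.0524 to 0.128), FARSA without either gSI replicate (0.122 and 0.169), and QARS without any 1 of the 4 libraries (0.0546 to 0.228). Under quantile scaling FARSA (0.0651) and QARS (0.319) also did not pass. That scaling moved the share of all calls that were upwards from 43.0% to 51.7%.

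**Figure D4:**
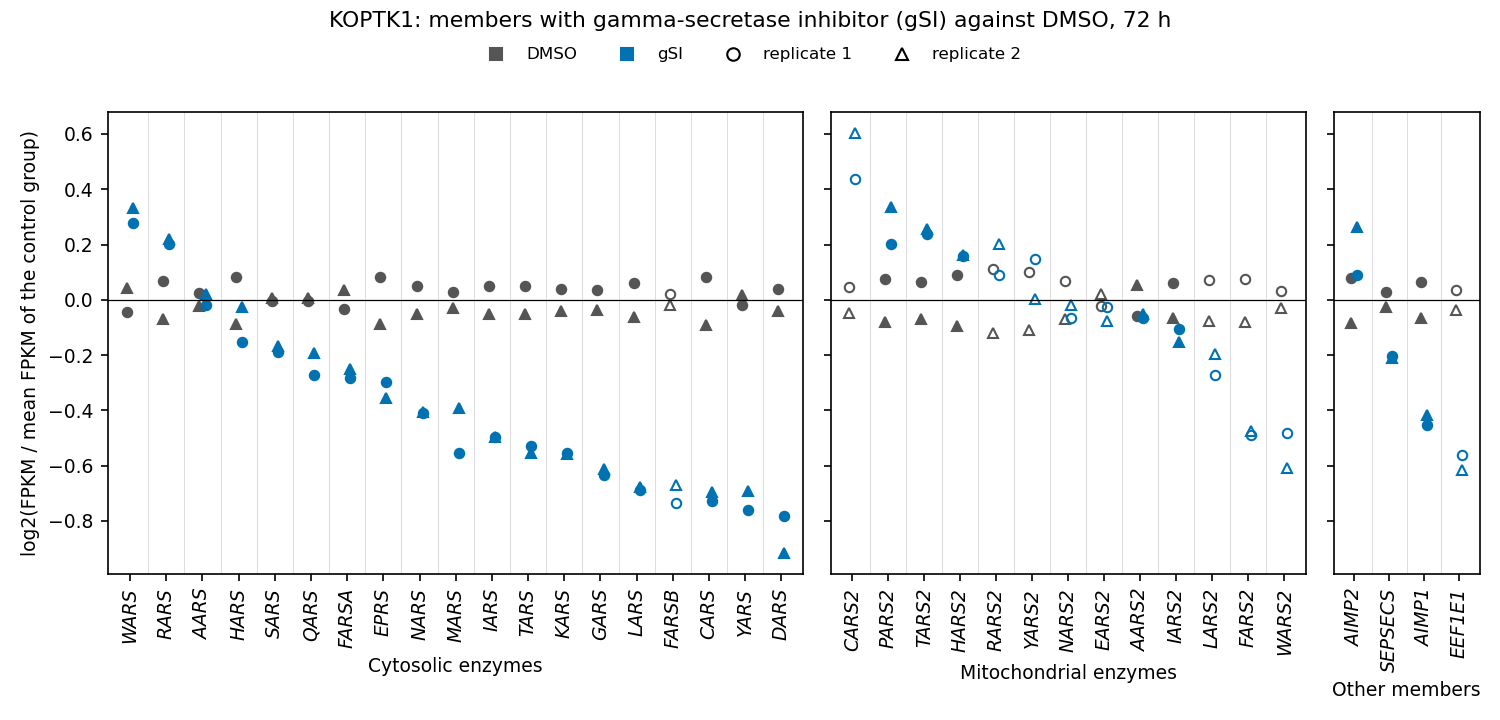
Level of the human members described here in every KOPTK1 library, as log2 of FPKM over the DMSO mean; grey is DMSO, blue gSI, circles replicate 1, triangles replicate 2, and open symbols mark members not tested. Most cytosolic enzymes have both gSI libraries below both DMSO libraries, from QARS and FARSA down to DARS, while WARS and RARS lie above and the mitochondrial enzymes lie on both sides of 0.

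The falls in KOPTK1 were both on and off the ATF4 list. Of the 12 listed enzymes 9 fell and 1 rose (median -0.40), and of the 6 tested off the list 4 fell and 0 rose (median -0.22), where 30.3% of all genes fell and 22.8% rose. In the multi-synthetase complex 7 of 8 enzymes fell, all but RARS, and 6 of 10 tested free enzymes fell with 1 rise. Class I enzymes gave 7 falls and 1 rise of 9, and class II enzymes 6 falls of 9. ASNS, with 3.31 and 3.07 FPKM under DMSO and 3.48 and 3.22 FPKM under gSI, did not pass (log2 0.05, SE 0.07, adjusted p = 0.574).

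TARS2, for mitochondrial threonine, rose from 1.44 and 1.31 FPKM to 1.62 and 1.65 FPKM (log2 0.15, SE 0.06, limma adjusted p = 0.0445). PARS2, for proline, rose from 1.13 and 1.01 FPKM to 1.23 and 1.35 FPKM (log2 0.15, SE 0.06, limma adjusted p = 0.0350). Both calls were lost without DMSO replicate 2 (0.110 and 0.121), without either gSI replicate (0.103 to 0.377) and with no filter (0.0811 and 0.0798), and that of PARS2 with voom (0.0984). AIMP1 fell from 2.51 and 2.29 FPKM to 1.76 and 1.80 FPKM (log2 -0.29, SE 0.07, limma adjusted p = 0.000767). The untested FARSB had 0.794 and 0.772 FPKM with DMSO and 0.471 and 0.492 FPKM with gSI, and untested EEF1E1 had 0.305 and 0.290 FPKM against 0.201 and 0.194 FPKM.

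Of 10 tested partner genes 7 fell, against 30.3% of all genes, and 1, VARS2, rose, against 22.8%. Besides VARS, the falls were in the elongation factors EEF1B2 (log2 -0.84, limma adjusted p = 7.75e-09) and EEF1A1 (-0.56, 2.83e-06), the tRNA exporter XPOT (-0.43, 4.72e-05), the deacylase DTD2 (-0.43, 2.73e-06), QRSL1 of the mitochondrial glutaminyl-tRNA amidotransferase (-0.26, 0.000407) and GTPBP2, a factor for stalled ribosomes (-0.19, 0.0145). EEF1A1 and EEF1B2 have near-identical pseudogene copies, so their reads are uncertain. GTPBP2 did not pass without gSI replicate 1 or 2 (0.292 and 0.0645). The T-lineage marker sum, lower with gSI as given above, moved in the same direction as these genes, and its part in the result was not tested.

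**Figure D5:**
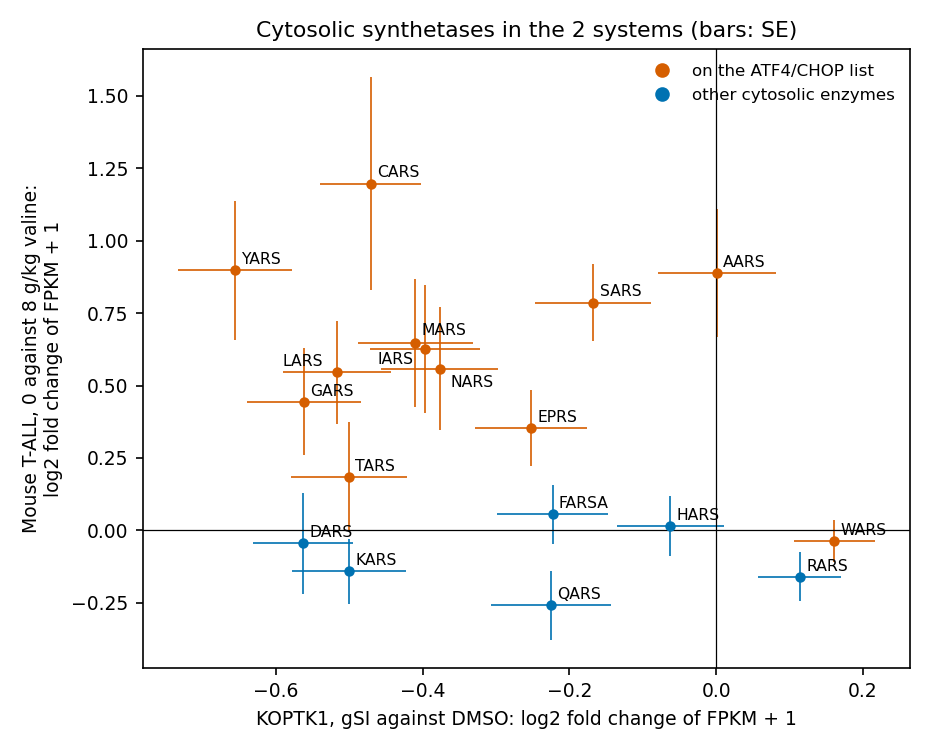
Each cytosolic synthetase tested in both species, by its log2 fold change with gSI in KOPTK1 (horizontal) and its log2 difference at 0 against 8 g/kg valine in mouse T-ALL (vertical), with SE bars; orange marks the ATF4 and CHOP list. CARS, YARS, MARS, IARS, NARS, LARS and GARS lie low on the first and high on the second, AARS and SARS high on the second with no call on the first, and DARS and KARS low on the first and near 0 on the second.

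Set side by side, the 2 systems differed in direction for some enzymes and not for others. YARS fell by 0.66 with gSI and Yars was 0.90 higher at 0 g/kg, and CARS fell by 0.47 and Cars was 1.196 higher. AARS was at 0.00 with gSI and Aars 0.89 higher at 0 g/kg. DARS fell by 0.56 with gSI, and Dars differed by -0.04 at 0 g/kg. QARS was at -0.22 with gSI and Qars at -0.26 at 0 g/kg, and KARS was at -0.50 and Kars at -0.14. Human FPKM of these enzymes were lower than mouse FPKM, and log2(FPKM + 1) shrinks changes at low FPKM. Species, tables and treatments differ between them, and the difference was not tested.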

How the data were processed

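RNA of 12 libraries had been sequenced with a strand-keeping kit, per the labels' protocols. The submitters' processing notes list STAR and edgeR, with hg19 and mm10 as builds. Versions, gene lengths and the way of counting were not given in the sources used here. What the authors deposited is FPKM per gene and library, with each species normalised apart. Read numbers were recovered from their whole-number ratios. The gene length this implies came out whole, within 0.01 bp, in human for 95.8% and in mouse for 99.9% of genes, with medians of 29960 and 3180 bp, so the depths are estimates. Libraries of a group differed beyond counting noise (chi-square per degree of freedom 5.72 to 93.6).

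Genes whose mean reached 1 FPKM (6679 human, 9943 mouse) entered limma (3.58.1, R 4.3.3) as log2(FPKM + 1). Its trended variance was used, tests were two-sided, and Benjamini-Hochberg adjustment ran over all tested genes at 0.05. This scale understates the change of genes at low FPKM. The 4 diets were fitted together. Fold changes and differences in the text are on this scale unless called a fold of mean FPKM. A fit on recovered reads used voom. The code was also tested on simulated data. The human table paired no symbol with 797 genes and the mouse table none with 318, and a reference list named all of the latter. Promoters were matched by symbol or synonym and checked by position; human promoters were not used here.

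The members, the lists and the tests were chosen with earlier results of these data known. Enzymes described with values in each library were, per comparison, those called with the largest change (up to 6 cytosolic, 3 mitochondrial and 2 other), or, with none called, those of smallest p (up to 4, 2 and 1), with the branched-chain and valyl enzymes and called partners. Farsa, Tars, Wars, Qars, RARS, AARS, SARS, HARS, FARSB and EEF1E1 were added after their values were seen, as were genes named only in a count, a range or the order of levels, and Asns. Alternatives were pseudocounts of 0.1 and 5, no filter, a filter at 5 FPKM, median-of-ratios and quantile scaling, the replicate number as a block, voom, and each library left out. The levels of 1 mitochondrial enzyme, which is in the counts and medians of its class, are not reported here.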

Additional observations from a re-analysis of the deposited data

How the results depend on the processing

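The replicate number as a block changed no call: 13 falls and 1 rise of cytosolic enzymes in KOPTK1 and 0 calls on each diet, as without it. Mouse numbers were no block in the main fit, since the labels do not say what TALL2 and TALL3 mark. Deviations of same-numbered mouse libraries correlated across genes at 0.363 to 0.743, except 0.4 g/kg with 8 g/kg (0.059) and with 0.8 g/kg (-0.174). The correlation in KOPTK1 was 0.258. With the block limma had 609 genes higher and 621 lower at an unadjusted p under 0.05 for 0 g/kg, against 476 and 549 without it. In mouse, cytosolic medians kept their sign under every setting for 0 and 0.4 g/kg and the slope (0.29 to 0.44, 0.23 to 0.35 and 0.10 to 0.14). For 0.8 g/kg the median reached from -0.020 to 0.44 with a library left out, the lowest without 0.8 g/kg TALL3. The enzymes above both controls there were 8 with median-of-ratios scaling, which moved the median over all genes from -0.041 to 0.00073. The share of all genes above both controls was not counted under that scaling. The other members' median there was -0.15 to 0.11. The slope of Sars was 0.25 with all libraries and 0.27 without 0.8 g/kg TALL3. The cause was not tested.

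For gSI against DMSO, the cytosolic median was -0.43 with pseudocount 0.1, -0.21 with pseudocount 5, -0.30 with quantile scaling, -0.44 with voom, and -0.43 to -0.34 with a library left out. The mitochondrial median was 0.10, 0.031, 0.094 and 0.11 in that order, 0.0088 with no filter, 0.091 with median-of-ratios scaling, and 0.031 to 0.12 with a library left out. The median of other members was -0.19 with pseudocount 0.1, -0.048 with pseudocount 5 and -0.21 with voom. Cytosolic falls were 8 with the 5 FPKM filter, which tests fewer genes, and 10 to 12 with a library left out. Cytosolic rises were 0 with that filter, where 415 genes rose. They were 2 with median-of-ratios scaling or voom, where 1786 and 1588 genes rose, and 3 with quantile scaling, where 1981 did. Mitochondrial rises were 1 with no filter or voom, where 2518 of 11513 and 1588 of 6678 genes rose. With no filter 1 mitochondrial fall appeared, where 2856 genes fell. Falls of other members were 2 with no filter, median-of-ratios scaling, quantile scaling or voom. The genes that fell under these settings were 2856, 2079, 1852 and 2089 in that order. Losses of a call with a library left out are given above.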
